A study of Mus musculus with 16 samples.

Results

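The genes described here are 7 genes whose RNA is a mark of platelets and of megakaryocytes, the marrow cells that shed them: Pf4, Ppbp, Itga2b, Gp9, Gp1bb, Gp1ba and Treml1. They were taken by name from a table of 13733 genes measured in cells of mouse knee joints, and 7 of 7 were present. The table holds 16 bulk RNA-seq libraries, from uninjured (D0) and injured (D7) joints of WT and Trem2-/- mice, with 4 libraries for each genotype and time. WT mice were C57BL/6, and Trem2-/- mice carried the em2Adiuj allele of Trem2 on the same background, in every cell and not only in myeloid cells. Injured male mice had their anterior cruciate ligament ruptured at 10 weeks of age by a single compression of the tibia, and the joints were taken 7 days later (D7), while D0 joints were uninjured. By the study's methods, joints were digested with collagenase and red blood cells were lysed before RNA was taken, and it is not stated whether CD45+ cells were enriched for the bulk libraries. GEO's labels instead describe homogenized joints of mice aged 16 weeks and another disease model, so how the cells were obtained rests on the methods. Nothing says that the 4 libraries of a group came from separate mice, so the p-values measure the spread between libraries.

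Platelets have no nucleus and carry messenger RNA that they received from the megakaryocyte. Their alpha granules hold the chemokines Pf4 (platelet factor 4, Cxcl4) and Ppbp (the precursor of neutrophil-activating peptide, Cxcl7), which are released when platelets are activated at a wound. Their surface carries the fibrinogen receptor, an integrin of Itga2b and Itgb3, and the von Willebrand factor receptor, a complex of Gp1ba, Gp1bb, Gp9 and Gp5 with which platelets catch on exposed collagen under flow. Treml1 is a receptor of the TREM family that is stored in alpha granules. Pf4 is also transcribed by some tissue macrophages, so that its RNA does not mark platelets alone.

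Values are TMM-normalized read counts on the CPM scale, in which libraries are scaled to each other by a trimmed mean of gene ratios. A library held between 11567073 and 32867818 reads (median 16399898), and a gene with 3 reads corresponds to 0.101 to 0.250 CPM, a limit that covers counting error only. Trem2 itself was at 2.51 to 5.61 CPM in WT D0 and 10.7 to 22.5 in WT D7 libraries, against 0.948 to 2.68 and 3.42 to 4.84 CPM in Trem2-/-. Markers of other cells moved strongly with injury, and their part in the results on platelet genes was not tested. All 6 pan-leukocyte genes (such as Ptprc and Laptm5) were lower at D7 in WT and in Trem2-/-, with a summed level of 2143 to 4478 CPM in WT D0, 1268 to 2600 in WT D7, 2692 to 4828 in Trem2-/- D0 and 941 to 1164 in Trem2-/- D7. All 9 erythroid genes found, of 12 listed, were lower at D7 in both genotypes, with sums of 1407 to 2486 CPM in WT D0, 423 to 1497 in WT D7, 1136 to 2224 in Trem2-/- D0 and 359 to 851 in Trem2-/- D7. All 8 neutrophil and all 7 B cell genes were lower too, while 6 of 6 chondrocyte genes were higher in both genotypes, as were 5 of 7 fibroblast genes in WT and 6 of 7 in Trem2-/-. No gene found in these lists was at 0 in all libraries. In bulk libraries, fewer cells of a type and less RNA per cell cannot be told apart.

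The 7 genes did not respond to injury as a group. In both genotypes the estimates were below 0 for Ppbp, Itga2b, Gp9, Gp1ba and Treml1 and above 0 for Pf4 and Gp1bb. By the study's rule, a call needed an unadjusted p under 0.05 and an absolute log2 fold change over 0.32 in limma. In WT, Gp9, Itga2b and Treml1 fell and Pf4 rose, so that 4 of 7 were called, against 37.4% of all 13173 genes tested, 18.2% lower and 19.3% higher. In Trem2-/-, Gp9 and Gp1ba fell and Pf4 and Gp1bb rose, again 4 of 7, against 54.5% of all genes, 27.9% lower and 26.5% higher. Counted by a Benjamini-Hochberg adjusted p under 0.05 over all genes, 1 member passed in WT (28.5% of all genes) and 4 in Trem2-/- (53.2%). Much of the transcriptome changed with injury, and the counts of members are read against that background and no further. The median log2 fold change was -0.73 over the members and -0.04 over all genes in WT, and -0.61 and -0.04 in Trem2-/-. Treml1 passed the filter of at least 1 CPM in at least 4 libraries only through uninjured libraries, and Gp9 mainly through them, so that such a gene was likely to be lower at D7 once tested, and the count and median of the members are no support for a fall.

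**Figure D1:**
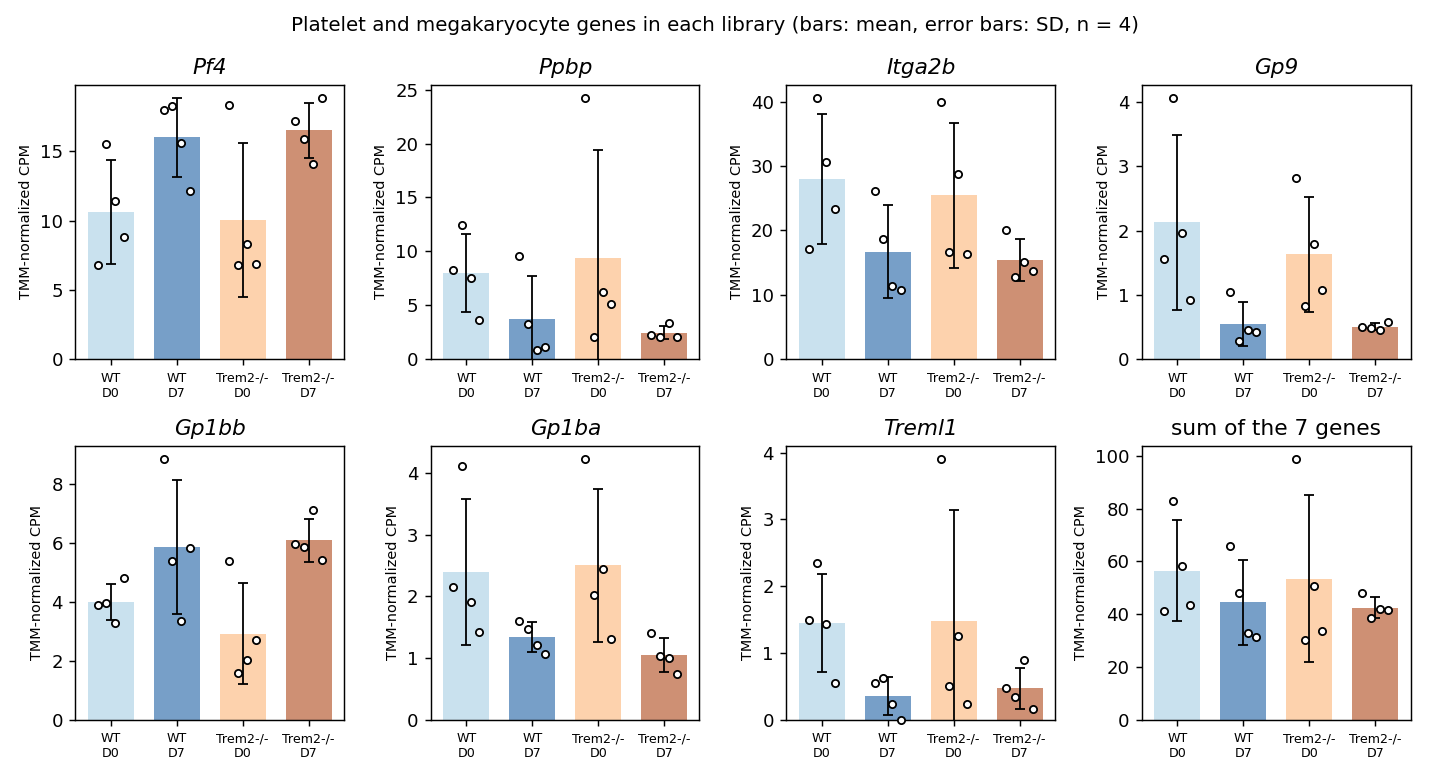
TMM-normalized CPM (vertical axes) of the 7 genes and of their sum in WT and Trem2-/- libraries at D0 and D7, with points for libraries 1 to 4 from left to right, bars for the mean and error bars for the SD (n = 4), whose lower end is cut at 0 where it would fall below. Pf4 and Gp1bb have higher means at D7 in both genotypes and the other 5 genes have lower ones, and Trem2-/- D0 library 1 is the highest of its group for 7 of 7 genes.

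Pf4 and Ppbp are neighbours on chromosome 5 (GRCm38, Ppbp at chr5:90768518-90770063 and Pf4 at chr5:90772435-90773383, both on the plus strand) with 2372 bases between them. Their promoters are shown because this adjacent pair of chemokine genes had estimates of opposite sign after injury. Both are 300 bases from RefSeq (GRCm38.p6), from 250 bases before the start of the gene to 50 after it, Ppbp at chr5:90768268-90768567 and Pf4 at chr5:90772185-90772484. Capitals mark GGAAG (a core bound by ETS factors such as Fli1) and AGATAA or TGATAA (a core bound by GATA factors such as Gata1), each searched on both strands, so that CTTCC is GGAAG on the minus strand.
Ppbp: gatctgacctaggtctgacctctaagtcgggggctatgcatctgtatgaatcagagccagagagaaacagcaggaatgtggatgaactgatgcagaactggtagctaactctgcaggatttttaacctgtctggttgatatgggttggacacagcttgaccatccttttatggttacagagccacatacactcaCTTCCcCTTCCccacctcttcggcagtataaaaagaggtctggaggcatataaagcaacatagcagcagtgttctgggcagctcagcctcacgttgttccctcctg
Pf4: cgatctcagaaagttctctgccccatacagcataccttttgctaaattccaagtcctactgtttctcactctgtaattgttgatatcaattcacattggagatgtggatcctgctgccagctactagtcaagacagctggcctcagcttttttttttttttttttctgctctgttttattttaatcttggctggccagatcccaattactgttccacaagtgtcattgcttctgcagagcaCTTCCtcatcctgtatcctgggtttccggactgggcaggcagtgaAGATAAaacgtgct
The Pf4 promoter holds GGAAG at -9 and AGATAA at 37 from the start of the gene, and that of Ppbp holds GGAAG at -56 and -50 and neither GATA string. GGAAG was in the promoters of 7 of 7 members and in 71.4% of all 32817 promoters, and AGATAA or TGATAA in 2 of 7 members and in 18.6% of all. These matches describe the letters in this window and no more, and other GATA strings were not searched.

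Pf4 rose after injury in both genotypes. In WT it was at 6.81, 15.5, 11.4 and 8.82 CPM in D0 libraries 1 to 4 and at 18.0, 18.3, 15.6 and 12.1 CPM in D7 libraries. The Trem2-/- libraries had 18.3, 6.76, 8.29 and 6.87 CPM at D0 and at 17.2, 15.9, 14.1 and 18.8 CPM at D7. Every injured library was above the uninjured ones of its genotype except WT D0 library 2 and Trem2-/- D0 library 1, which were as high as injured libraries. The mean went from 10.6 ± 3.76 to 16.0 ± 2.85 CPM in WT (SD, n = 4) and from 10.1 ± 5.56 to 16.5 ± 2.00 in Trem2-/-. In limma the log2 fold change of (value + 1) was 0.59 (SE 0.27, Benjamini-Hochberg adjusted p = 0.113) in WT and 0.77 (SE 0.27, adjusted p = 0.0269) in Trem2-/-. The WT call did not pass the adjusted threshold and was lost with edgeR's quasi-likelihood test on whole reads and with quantile normalization. It was also lost without any of WT D0 libraries 1, 3 and 4 or WT D7 libraries 1, 2 and 3, and, through the spread that all groups share, without Trem2-/- D0 library 3 or any of the 4 Trem2-/- D7 libraries, while the Trem2-/- call was kept without any library in turn. Exact two-sided permutation tests on CPM gave p = 0.0571 in WT and 0.114 in Trem2-/-, where 0.0286 is the smallest p that 70 assignments allow.

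Some macrophage markers rose beside Pf4. In WT, 5 of 7 general macrophage genes rose, among them C1qa, C1qb and C1qc, and none fell. In Trem2-/-, 4 of 7 rose and 2 fell. Their summed level, in which Cd14 weighs most, was 883 to 1411 CPM in WT D0, 790 to 1561 in WT D7, 906 to 1507 in Trem2-/- D0 and 735 to 931 in Trem2-/- D7. Of 7 markers of Lyve1hiFolr2hi macrophages, a type of resident macrophage in the joint, Folr2, Mrc1 and Stab1 rose in both genotypes and Timd4 fell in Trem2-/- (log2 fold change -0.51). Lyve1 (-0.30 in WT and -0.53 in Trem2-/-) and Cd163 (0.32 and -0.71) were not called. The summed level of the 7 genes went from 195 to 449 CPM in WT D0 to 436 to 588 in WT D7 and from 212 to 437 to 458 to 517 in Trem2-/-. Between libraries of 1 group, with group means removed over the 16 libraries, Pf4 was compared with the mean log2(value + 1) of each list, not with its sum. The correlation was 0.13 for the general macrophage and -0.21 for the Lyve1hiFolr2hi genes. It was 0.60 for erythroid, 0.55 for B cell, 0.49 for pan-leukocyte and 0.47 for neutrophil genes. Below 0 were fibroblast (-0.33), chondrocyte (-0.37) and endothelial genes (-0.64). With Itga2b, a single gene and not a list, it was 0.82. Part of the likeness between any 2 genes can come from what libraries share, such as their cell mixture. The part of macrophages in the level of Pf4 was not tested.

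Ppbp, with the largest SE of the 7 genes, varied widely between libraries. In WT it was at 8.31, 12.4, 7.50 and 3.65 CPM in D0 libraries and at 9.54, 3.23, 0.862 and 1.13 CPM in D7 libraries. In Trem2-/- the levels were 24.2, 2.02, 6.20 and 5.10 CPM at D0 and at 2.25, 2.07, 3.36 and 2.09 CPM at D7. WT D7 library 1 stood with the uninjured libraries, and Trem2-/- D0 library 2 with the injured ones. The means were 7.97 ± 3.60 and 3.69 ± 4.04 CPM in WT and 9.38 ± 10.0 and 2.44 ± 0.618 CPM in Trem2-/-. The log2 fold change was -1.20 (SE 0.58, limma adjusted p = 0.127) in WT and -1.16 (SE 0.58, adjusted p = 0.105) in Trem2-/-, so neither change was called. Without WT D7 library 1 the change was called in both genotypes. In WT it was also called with voom on whole reads, with pseudocount 0.1, and without WT D0 library 4 or Trem2-/- D0 library 1 or 2. In Trem2-/- it was also called with edgeR on whole reads and without Trem2-/- D0 library 2. Without Trem2-/- D0 library 1, which had the highest level, the Trem2-/- value was -0.58 and was not called.

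The ratio of Pf4 to Ppbp within each library is given as a description. It was 0.820 to 2.42 in WT D0 libraries and 1.88, 5.67, 18.1 and 10.7 in WT D7 libraries. The Trem2-/- libraries had 0.758, 3.34, 1.34 and 1.35 at D0 and 7.63, 7.70, 4.20 and 9.04 at D7. Only WT D7 library 1 had a ratio within the range of its own genotype's uninjured libraries. The pair was chosen with its estimates of opposite sign known, so a shift of the ratio was likely in advance. It carries no test.

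Itga2b, the alpha chain of the fibrinogen receptor, is at chr11:102453297-102470122 on the minus strand. It was at 17.1, 40.6, 30.7 and 23.4 CPM in WT D0 libraries and at 26.1, 18.7, 11.3 and 10.7 CPM in WT D7 libraries. The Trem2-/- libraries were at 40.0, 16.7, 28.8 and 16.3 CPM at D0 and at 20.1, 12.7, 15.1 and 13.7 CPM at D7. The groups overlap in both genotypes, in WT because D0 library 1 was below D7 libraries 1 and 2 and D0 library 4 below D7 library 1, and in Trem2-/- because D0 libraries 2 and 4 were below D7 library 1. Itga2b fell in WT with a log2 fold change of -0.73 (SE 0.33, limma adjusted p = 0.101), a call that does not pass the adjusted threshold, and in Trem2-/- the value was -0.61 (SE 0.33, adjusted p = 0.125). Without WT D0 library 2 or 3, or without WT D7 library 3 or 4, the WT call was lost. Itgb3, the beta chain of the same receptor, moved the other way, from a mean of 52.1 to 86.8 CPM in WT (log2 fold change 0.74) and from 46.3 to 105 CPM in Trem2-/- (1.20), and was called higher in both. Itgb3 also pairs with the alpha v chain in osteoclasts, endothelium and other cells, and it was singled out here after its values were seen.

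The von Willebrand factor receptor is made of the products of Gp1ba, Gp1bb, Gp9 and Gp5. Gp1ba, Gp9 and Gp5 went down in estimate and Gp1bb went up. Gp5, a subunit that thrombin cleaves, was singled out after its values were seen. It fell from a mean of 2.31 to 1.09 CPM in WT and from 2.35 to 0.873 CPM in Trem2-/-.

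Gp9 (chr6:87778072-87779768, plus strand), the small subunit that the complex needs to reach the surface, fell in both genotypes. It was at 1.55, 4.06, 1.97 and 0.926 CPM in WT D0 libraries and at 1.04, 0.283, 0.448 and 0.416 CPM in WT D7 libraries. In Trem2-/- it was at 2.82, 0.821, 1.79 and 1.08 CPM at D0 and at 0.504, 0.482, 0.448 and 0.584 CPM at D7. In Trem2-/- every D7 library was below every D0 library, which held for this gene and for Gp1bb among the 7, in either direction, and for 52.4% of all genes. In WT library 1 of D7 lay above library 4 of D0, and 0 of 7 members had groups that did not overlap, against 22.2% of all genes. The mean was 3.88-fold lower at D7 in WT and 3.23-fold lower in Trem2-/-. The log2 fold change of (value + 1), which understates the change of genes this low, was -0.94 (SE 0.27, limma adjusted p = 0.0186) in WT and -0.75 (SE 0.27, adjusted p = 0.0292) in Trem2-/-. Exact two-sided permutation tests on CPM gave p = 0.0571 in WT and 0.0286 in Trem2-/-, the smallest they can give. Gp9 was called in WT without any library in turn. In Trem2-/- it was no longer called without Trem2-/- D0 library 1.

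Gp1ba (chr11:70639122-70642036, plus strand), the subunit that binds von Willebrand factor, fell in Trem2-/-. It was at 2.15, 4.11, 1.91 and 1.42 CPM in WT D0 libraries and at 1.60, 1.47, 1.21 and 1.07 CPM in WT D7 libraries. In Trem2-/- it was at 4.23, 2.02, 2.45 and 1.31 CPM at D0 and at 1.41, 1.03, 1.01 and 0.751 CPM at D7. In both genotypes D0 library 4 was the only uninjured library within the range of the injured ones. The log2 fold change was -0.72 (SE 0.24, limma adjusted p = 0.0206) in Trem2-/- and -0.49 (SE 0.24, adjusted p = 0.134) in WT, where it was not called. With edgeR and with voom on whole reads it was called in WT as well.
The Gp1ba promoter (chr11:70638872-70639171, plus strand) is shown because it holds TGATAA 2 times, at -104 and at -51 on the opposite strand, where it reads TTATCA, beside GGAAG at -164, -16 and 46. TGATAA was in 1 of 7 members and in 9.06% of all promoters.
Gp1ba: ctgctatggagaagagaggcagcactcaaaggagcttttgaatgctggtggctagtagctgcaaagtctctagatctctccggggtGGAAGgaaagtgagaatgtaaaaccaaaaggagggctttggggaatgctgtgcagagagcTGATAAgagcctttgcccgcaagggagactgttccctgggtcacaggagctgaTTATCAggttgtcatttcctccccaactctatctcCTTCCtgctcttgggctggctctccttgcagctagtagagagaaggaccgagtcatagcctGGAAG

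Gp1bb (chr16:18620317-18622403, minus strand), the subunit tied to Gp1ba by disulfide bonds, rose in Trem2-/-. It was at 5.38, 1.58, 2.03 and 2.70 CPM in Trem2-/- D0 libraries and at 5.95, 5.86, 7.11 and 5.42 CPM in Trem2-/- D7 libraries. In WT it was at 3.88, 3.97, 3.30 and 4.79 CPM at D0 and at 8.84, 5.38, 3.34 and 5.82 CPM at D7. In Trem2-/- every D7 library was above every D0 library, and in WT only library 3 of D7 reached down into the D0 range. The log2 fold change was 0.94 (SE 0.26, limma adjusted p = 0.00697) in Trem2-/- and 0.41 (SE 0.26, adjusted p = 0.241) in WT. The exact two-sided permutation test gave p = 0.0286 in Trem2-/- and 0.143 in WT.

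Gp1bb is the member whose reads are least certain. By the GENCODE annotation, 91.1% of its exon length lies within exons of Sept5, a septin gene on the same strand, and 41.5% within Gm49601, so that reads of Gp1bb and Sept5 cannot be split with certainty whatever strand setting was used. The table holds a row named 5-Sep, which is what spreadsheet programs make of Sept5, and it was looked up after the values of Gp1bb were seen. It had means of 63.9 ± 11.5 CPM in WT D0, 94.3 ± 6.16 in WT D7, 65.8 ± 25.8 in Trem2-/- D0 and 92.3 ± 7.49 in Trem2-/- D7, and was called higher at D7 in both genotypes (log2 fold change 0.57 and 0.56). The part of Sept5 reads in the Gp1bb values was not tested.
The Gp1bb promoter (chr16:18622354-18622653, minus strand, printed in the direction of transcription) is shown beside that of Gp1ba because the subunits had estimates of opposite sign. It holds GGAAG at -111, -90 and 21 and neither AGATAA nor TGATAA. Other GATA strings, such as TGATAG (here on the opposite strand as ctatca), were not searched, so a promoter without GATA sites is not shown.
Gp1bb: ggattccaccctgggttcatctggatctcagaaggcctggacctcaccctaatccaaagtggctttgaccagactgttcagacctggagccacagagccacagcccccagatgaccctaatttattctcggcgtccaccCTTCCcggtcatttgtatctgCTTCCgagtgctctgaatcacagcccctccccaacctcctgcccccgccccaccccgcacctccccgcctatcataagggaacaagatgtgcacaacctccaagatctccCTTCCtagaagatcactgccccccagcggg

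Treml1 (chr17:48359916-48367176, plus strand) is the member nearest to Trem2, since it starts 5769 bases after the end of that gene. It was at 1.49, 2.34, 1.44 and 0.545 CPM in WT D0 libraries and at 0.557, 0.623, 0.241 and 0 CPM in WT D7 libraries, where the 0 reads of WT D7 library 4 allow a level of up to 0.178 CPM. In Trem2-/- it was at 3.90, 0.505, 1.253 and 0.232 CPM at D0 and at 0.470, 0.345, 0.896 and 0.167 CPM at D7. D0 and D7 overlap in both genotypes. Treml1 was called lower at D7 in WT (log2 fold change -0.83, SE 0.35, limma adjusted p = 0.0845) and was not called in Trem2-/- (-0.56, SE 0.35, adjusted p = 0.192). No injured library was above 0.896 CPM, so the gene was tested only because uninjured libraries passed the filter, and its WT call is given as a description. At neither time was a difference between genotypes called (limma adjusted p = 1.00 at D0 and 0.958 at D7). The WT call was lost without any of WT D0 libraries 1, 2 and 3 or WT D7 libraries 3 and 4.

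**Figure D2:**
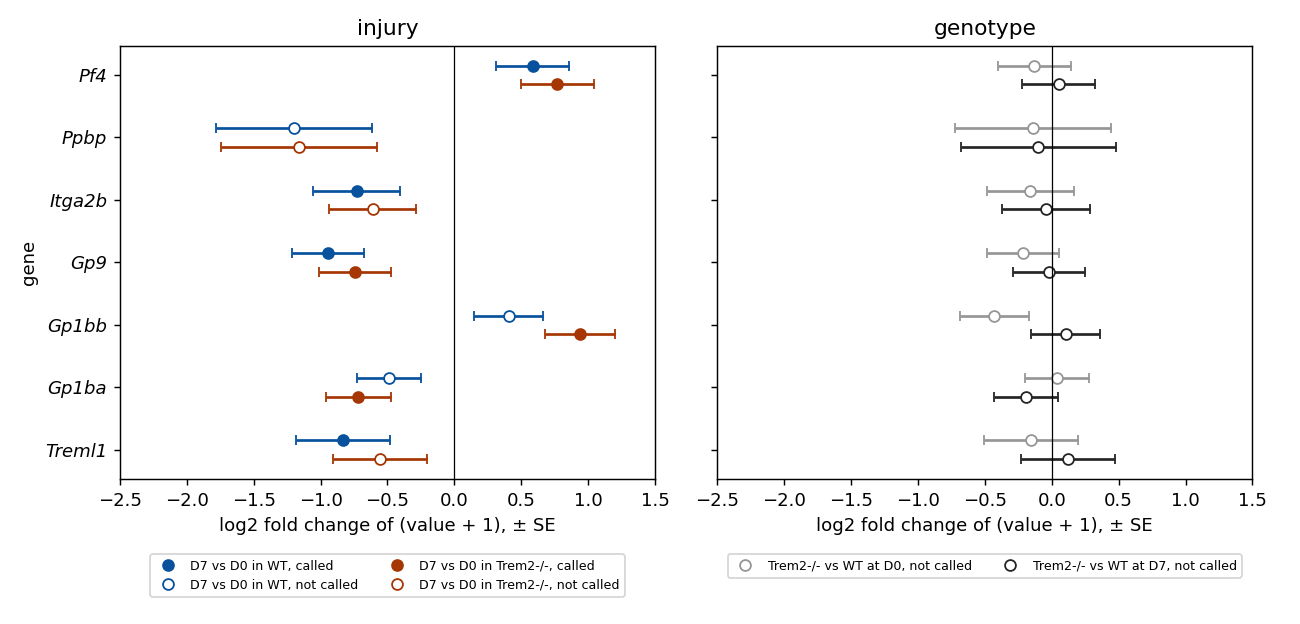
Log2 fold change of (value + 1) with its SE (horizontal axes) for the 7 genes (vertical axis), D7 vs D0 in WT and Trem2-/- on the left and Trem2-/- vs WT at D0 and D7 on the right, from limma with 4 libraries a group. Filled points were called by an unadjusted p under 0.05 and an absolute log2 fold change over 0.32, 4 in each genotype on the left and 0 on the right.

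Within a library, the proportions of the genes differed between D0 and D7. Pf4 stood at 37.1 to 39.7% of the CPM of Itga2b in the 4 WT D0 libraries, although Itga2b itself ranged from 17.1 to 40.6 CPM in them. At D7 the share was 68.8 to 138% in WT and 85.3 to 138% in Trem2-/-, against 28.8 to 45.9% in Trem2-/- D0. Gp1bb went from 9.78 to 22.6% of Itga2b in WT D0 to 28.8 to 54.4% in WT D7 and from 7.04 to 16.6% to 29.5 to 47.2% in Trem2-/-. For both genes no injured library fell within the range of the uninjured libraries of its genotype. Gp1ba kept a range of 6.06 to 12.5% in WT D0 and 6.13 to 10.7% in WT D7, and in Trem2-/- it was 8.06 to 12.1% at D0 and 5.49 to 8.11% at D7. These ratios are descriptions of pairs chosen with the values known, and carry no test.

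**Figure D3:**
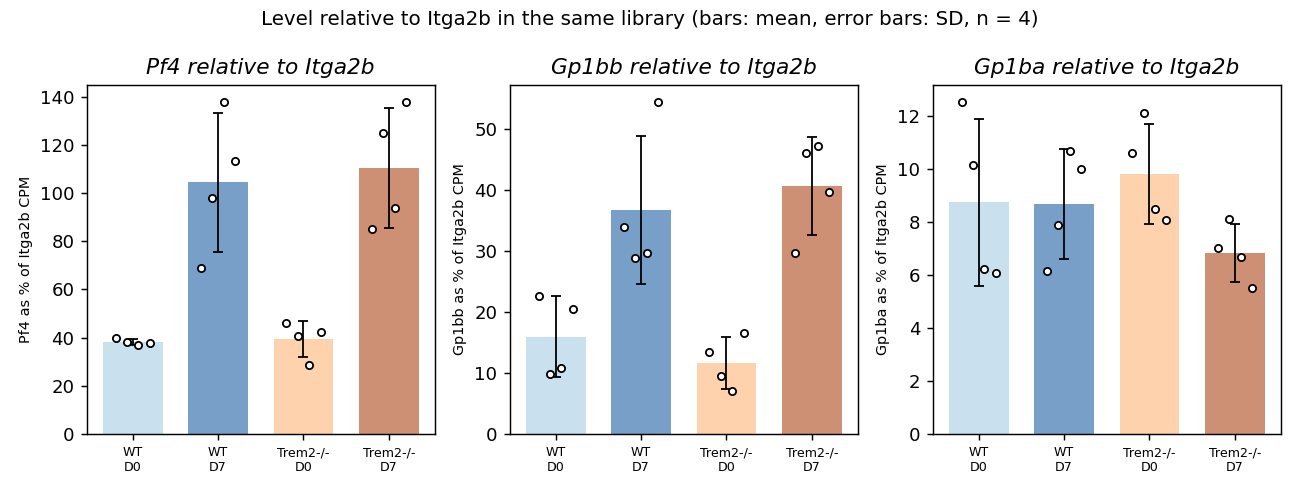
CPM of Pf4, Gp1bb and Gp1ba as a percentage of the CPM of Itga2b in the same library (vertical axes), by group, with points for libraries 1 to 4 from left to right, bars for the mean and error bars for the SD (n = 4). Pf4 and Gp1bb lie higher at D7 than at D0 in every library of either genotype, while Gp1ba overlaps between D0 and D7.

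Per kb of exon, the genes can be ranked, with the place of Gp1bb uncertain. Of its exon length 91.1% lies within exons of Sept5, so the length on which its reads could be counted is not known. At WT D0, Pf4 had 14.8 CPM per kb, Ppbp 7.36, Itga2b 5.12, Gp9 2.41, Gp1bb 1.91, Treml1 1.04 and Gp1ba 0.882. At WT D7 the order was Pf4 at 22.2, Ppbp at 3.41, Itga2b at 3.06, Gp1bb at 2.80, Gp9 at 0.622, Gp1ba at 0.492 and Treml1 at 0.253 CPM per kb. Neighbours in the order often lie within the spread between libraries, as Ppbp and Itga2b do at D7.

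No member was called between genotypes. At D7, 0 of 7 were called for Trem2-/- vs WT, against 5.72% of all genes, with log2 fold changes from -0.19 (Gp1ba, SE 0.24) to 0.12 (Treml1, SE 0.35) and unadjusted limma p from 0.437 to 0.947. At D0, 0 of 7 were called, against 2.15% of all genes, with values from -0.43 (Gp1bb, SE 0.26) to 0.04 (Gp1ba, SE 0.24) and unadjusted p from 0.119 to 0.876. No difference in the injury response was called either, with 0 of 7 for the interaction, against 7.79% of all genes, and values from -0.23 (Gp1ba, SE 0.34) to 0.53 (Gp1bb, SE 0.37). At an adjusted p under 0.05, limma called 0 of all 13173 genes in each of these comparisons, and at an unadjusted p under 0.05 it had 958, 385 and 1075. The difference in the members called between WT and Trem2-/- is therefore not a difference in response that this test shows. Without Trem2-/- D0 library 1, Gp1bb was called lower in Trem2-/- at D0 and its interaction was called.

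In 3 of the 4 groups most members were highest in the same library. Trem2-/- D0 library 1 was the highest of its group for 7 of 7 genes, WT D0 library 2 for 6 and WT D7 library 1 for 5. The 7 genes summed to 98.9 CPM in Trem2-/- D0 library 1 against 30.4, 50.8 and 33.6 CPM in the others of the group, to 83.0 CPM in WT D0 library 2 against 41.3, 58.2 and 43.5, and to 65.7 CPM in WT D7 library 1 against 48.0, 33.0 and 31.2. Gp1bb was highest in WT D0 library 4 instead. The injured Trem2-/- libraries had sums from 38.5 to 47.9 CPM, and their highest values were spread over libraries 1, 3 and 4, with 2, 3 and 2 genes. Endothelial, pan-leukocyte and erythroid sums, picked from the cell lists, are given beside these. Endothelial sums were the lowest of their groups in Trem2-/- D0 library 1 (1338 CPM), WT D0 library 2 (1315) and WT D7 library 1 (1659). The pan-leukocyte sum was the highest of its group in Trem2-/- D0 library 1 at 4828 CPM and the lowest in WT D7 library 1 at 1268 CPM. In WT D0 library 2 it was 4112 CPM, in a group range of 2143 to 4478. The erythroid sum was the highest of its group in WT D0 library 2 at 2486 CPM. It was 1555 CPM in Trem2-/- D0 library 1 and 597 in WT D7 library 1, inside group ranges of 1136 to 2224 and 423 to 1497. The part of these cells in the platelet gene levels was not tested.

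**Figure D4:**
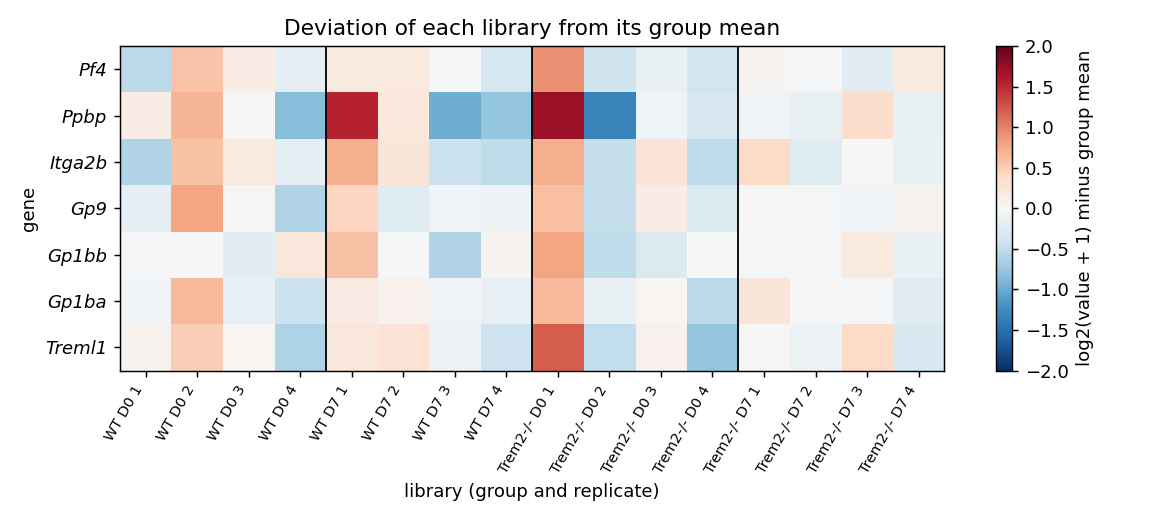
Deviation of log2(value + 1) from the group mean (colour scale, cut at 2 and -2) for the 7 genes (rows) in 16 libraries (columns), grouped by genotype and time. WT D0 library 2, WT D7 library 1 and Trem2-/- D0 library 1 are above their group mean for 7 of 7 genes, with the highest deviation of 1.73 for Ppbp in Trem2-/- D0 library 1.

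With group means removed, the correlation between members over the 16 libraries was highest for Gp1ba and Treml1 at 0.88, Gp9 and Gp1ba at 0.83, Pf4 and Itga2b at 0.82 and Ppbp and Treml1 at 0.81. It was lowest for Gp1bb with Gp1ba at 0.39 and with Gp9 at 0.43. Among the 10552 genes that averaged 5 CPM or more, those most like Itga2b were Ppp3cb (0.96), Chfr (0.91), Sirt3 (0.90), Rad52 (0.90) and Dcaf15 (0.89). Those most like Pf4 were Papd4 (0.89), Smap1 (0.88), Cops3 (0.88), Cd47 (0.87) and Prpf31 (0.87). For Ppbp the list was Sirt3 (0.83), Zbtb5 (0.83), Zfp672 (0.83), Ift57 (0.82) and Itga2b (0.80), and for Gp1bb it was Dcp1a (0.85), Rab27b (0.83), Cdk7 (0.82), Tnks (0.80) and Ppbp (0.79). Gp9 was most like Mtf2 (0.89), Mbd1 (0.89), Hus1 (0.88), Atad2b (0.88) and Ncapd3 (0.87), Gp1ba most like Zfp53 (0.88), Taf2 (0.84), Cfap97 (0.84), Mtf2 (0.83) and 2700049A03Rik (0.83), and Treml1 most like Thoc7 (0.83), 2700049A03Rik (0.82), Ppbp (0.81), Ptgir (0.79) and Zbtb8os (0.79). The points of these correlations share libraries and their scaling.

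Other genes of the platelet and megakaryocyte program fell more often than they rose. Of 54 genes in 6 lists, 49 were tested. In WT, 20 fell and 5 rose, against 18.2% and 19.3% of all genes, with a median log2 fold change of -0.52. In Trem2-/-, 29 fell and 7 rose, against 27.9% and 26.5% of all genes, with a median of -0.68. Many of these genes are also used by leukocytes, endothelium or red cell precursors, whose markers moved with injury as given above.

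Most transcription factors of the megakaryocyte lineage fell. In WT 9 of 10 fell and 0 rose, and in Trem2-/- 8 fell and 1 rose. Gata1, the master regulator that megakaryocytes share with red cell precursors, fell from a mean of 11.1 ± 8.47 to 2.96 ± 2.23 CPM in WT (log2 fold change -1.60, limma adjusted p = 0.0132) and from 9.55 ± 2.43 to 2.20 ± 0.650 CPM in Trem2-/- (-1.72, adjusted p = 0.00337). Its partner Gfi1b fell from 11.4 to 2.95 CPM in WT and from 9.60 to 1.99 CPM in Trem2-/-. Nfe2, needed for the release of platelets and also expressed in granulocytes, fell from 114 to 43.1 CPM in WT and from 131 to 23.2 CPM in Trem2-/-, and its fall was larger in Trem2-/- by the unadjusted interaction. Runx1 was at 174 and 207 CPM in WT, where it was not called, and rose from 150 to 196 CPM in Trem2-/-. Zfpm1, a cofactor of Gata1, fell in WT and was not called in Trem2-/- (log2 fold change -0.34). The 9 erythroid markers, which share Gata1 and Gfi1b as regulators, fell alongside, and their part was not tested.

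Of 4 genes of the thrombopoietin axis, 3 were tested, and 0 were called in WT. Jak2, a kinase of cytokine signaling, was at 311 and 247 CPM in WT and at 300.0 and 243 CPM in Trem2-/-. Sh2b3, an inhibitor of that signal, was at 96.3 and 77.2 CPM in WT and at 99.8 and 81.6 CPM in Trem2-/-. Neither was called in either genotype.

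Platelet adhesion receptors split. Of 8 tested, 2 fell and 2 rose in each genotype. Clec1b, the platelet receptor for podoplanin, had means of 1.75 CPM at D0 and 0.583 at D7 in WT and of 2.10 and 0.347 in Trem2-/-. It is 1 of the 2 counted as fallen in each genotype, but its highest injured library was at 0.827 CPM, so that it passed the filter only through uninjured libraries, and its call supports nothing. Itga2, a collagen receptor chain that other cells also use, rose from 5.14 to 9.96 CPM in WT (0.89, adjusted p = 0.00946) and from 3.62 to 13.4 CPM in Trem2-/- (1.68, adjusted p = 3.69e-05). Cd9 and Selp, which leukocytes or endothelium also express, were the most abundant of the list and were not called, Cd9 with means of 678 to 716 CPM over the 4 groups and Selp with means of 409 to 723 CPM.

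Among 6 agonist receptors, 2 fell and 1 rose in WT, and 4 fell and 1 rose in Trem2-/-. P2ry1, a receptor for ADP, fell from 8.29 to 3.40 CPM in WT (log2 fold change -1.06, limma adjusted p = 0.0146) and from 10.1 to 2.65 CPM in Trem2-/- (-1.51, adjusted p = 0.000515). P2rx1, a receptor for ATP, was at 8.33 and 5.77 CPM in WT and fell from 12.1 to 7.29 CPM in Trem2-/-. Tbxa2r, the thromboxane receptor, fell from 3.27 to 2.11 CPM in WT and from 2.74 to 1.32 CPM in Trem2-/-. P2ry12, the other ADP receptor of platelets and also a gene of some macrophages, rose from 1.64 to 4.04 CPM in WT (0.95, adjusted p = 0.00467) and was at 2.09 and 2.18 CPM in Trem2-/-. It is a gene that the study picked from these libraries, and its difference in response passed the unadjusted rule for the interaction.

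Of 11 genes of granule cargo and granule machinery, 3 fell and 2 rose in WT, and 5 fell and 3 rose in Trem2-/-. Unc13d, a priming factor for granule release, fell from 50.4 to 20.5 CPM in WT (log2 fold change -1.19, limma adjusted p = 0.00754) and from 62.7 to 13.8 CPM in Trem2-/- (-2.05, adjusted p = 4.85e-05). Rab27b, a small GTPase of dense granules and of other secretory cells, rose from 8.79 to 24.5 CPM in WT (1.40, adjusted p = 0.00137) and from 4.66 to 23.2 CPM in Trem2-/- (2.17, adjusted p = 1.67e-05). The cargo genes Thbs1 and Vwf, made also by fibroblasts and endothelium, were not called in WT, and Thbs1 fell in Trem2-/- from 7660 to 3769 CPM.

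Of 11 genes of platelet cytoskeleton and signaling tested, 4 fell in WT and 9 in Trem2-/-, and 0 rose. Rasgrp2, which activates Rap1 in platelets and is expressed in neutrophils too, fell from 81.5 to 35.3 CPM in WT (log2 fold change -1.16, limma adjusted p = 0.00175) and from 117 to 22.0 CPM in Trem2-/- (-2.31, adjusted p = 7.52e-06). Fermt3, the kindlin of blood cells, fell from 93.1 to 45.1 CPM in WT and from 106 to 28.2 CPM in Trem2-/-. Plek and Tln1 were not called in WT and fell in Trem2-/-, Plek from 1424 to 575 CPM. Pan-leukocyte genes fell alongside, with a median log2 fold change of -0.99 in WT and -1.94 in Trem2-/-, and their part was not tested.

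**Figure D5:**
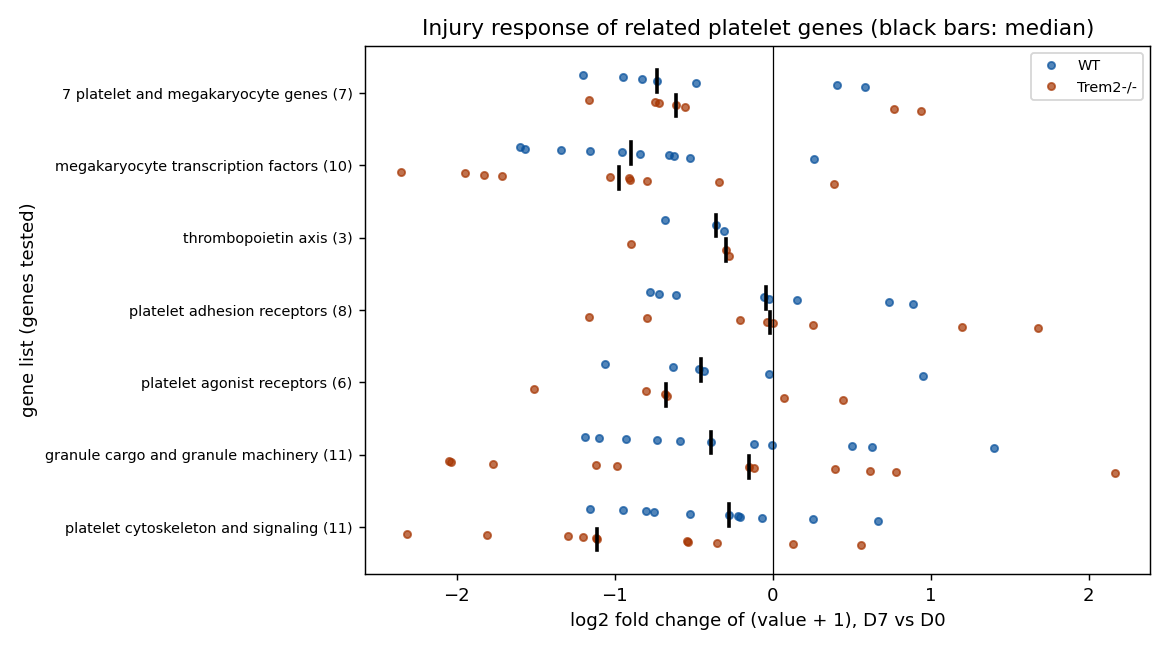
Log2 fold change of (value + 1), D7 vs D0 (horizontal axis), of each gene tested in the 7 described genes and in 6 related lists (vertical axis, number tested in parentheses), in WT and Trem2-/-, with black bars for the median. The median of the transcription factors is -0.90 in WT and -0.97 in Trem2-/-, and Pf4 and Gp1bb are the 2 described genes to the right of 0.

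The genes around the members on the chromosome were read as neighbours. Beside Pf4 and Ppbp, 4 CXC chemokine genes were found, and in WT none was called. In Trem2-/-, Cxcl5 rose from 6.94 to 28.6 CPM (log2 fold change 2.35, limma adjusted p = 0.00917) and Cxcl2 fell from 1724 to 849 CPM. Cxcl1 and Cxcl3 had means of 326 to 573 CPM and of 76.3 to 111 CPM and were not called. Beside Treml1, Trem1, Trem3, Treml2 and Treml4 fell in both genotypes and Trem2 rose in both. Treml4 fell from 10.9 to 5.73 CPM in WT and from 11.9 to 2.33 CPM in Trem2-/-, and Treml2 from 48.5 to 20.2 and from 64.9 to 10.4 CPM. At D7, Treml2 and Treml4 were lower in Trem2-/- than in WT by the unadjusted rule, and Treml1 was not. These genes are expressed in neutrophils and monocytes, and all 8 neutrophil markers fell with them, whose part was not tested.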

How the data were processed

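Per the study's methods, the authors converted base calls with bcl2fastq, aligned reads to mm10 (GRCm38) with STAR, counted reads per gene with featureCounts and normalized them with edgeR's TMM method. The deposited signal values are TMM-normalized CPM. Tool versions, the annotation, the strand setting and the filter on low counts are not given in the sources used here, and the methods name a stranded kit where the labels name another. 100% of the values were whole reads within 0.1. Values were compared as log2(value + 1) in limma 3.58.1 (R 4.3.3; lmFit, then eBayes using its mean trend) over 13173 genes, those reaching 1 CPM in 4 or more of the 16 libraries, with 4 groups as 1 factor, and p-values were adjusted over all of them. Single values were compared with exact permutation tests in scipy 1.17.1. Alternatives included edgeR 4.0.16 and voom on whole reads.

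The members and gene lists were chosen with earlier results of these data known. Named were the members, from each related list the 2 genes with the highest mean and the 2 called genes with the largest change in WT, all chromosomal neighbours, and the 5 genes most like each member. Positions are from GENCODE M21 and promoters from RefSeq (7 of 7 matched). Fits were tested on simulated data. A gene listed 2 times was counted once. List counts include 1 gene whose values are not given here.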

Additional observations from a re-analysis of the deposited data

Results flagged for a closer look

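In 28 sets of 4 libraries (7 genes in 4 groups), 2 libraries lay further from the other libraries of their group than Dixon's 95% limit allows, where chance alone flags about 1 in 20 sets. Pf4 in Trem2-/- D0 library 1 was at 18.3 CPM against 6.76 to 8.29 CPM in the other libraries, a gap of 0.868 of the group's range. Ppbp in Trem2-/- D7 library 3 was at 3.36 CPM against 2.07 to 2.25 CPM, a gap of 0.858 of the range.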

How the results depend on the processing

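For D7 vs D0, 0 of 178 recomputed log2 fold changes of members changed sign in WT and 0 of 178 in Trem2-/-, while 24 in WT and 3 in Trem2-/- lost a call and 14 and 7 gained one. Counts of called members moved more. With only genes of mean at least 5 CPM, which left 3 members, 2 were called in WT and 1 in Trem2-/-, and with pseudocount 5 the count in Trem2-/- was 2. By adjusted p, 1 was called in WT. With each library left out in turn, 1 to 6 were called in WT, 3 to 6 in Trem2-/-, 0 to 1 for genotype at D0 and for the interaction, and 0 for genotype at D7. The single library with 1 call at D0 and for the interaction was Trem2-/- D0 library 1, and the gene was Gp1bb.

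Log2 fold changes between genotypes changed sign under several settings, and the cause was not tested. At D7 Ppbp was 0.0057 with pseudocount 0.1 and 0.22 with voom, Itga2b 0.044 with voom, and Gp9 0.022 with pseudocount 0.1, 0.073 with quantile normalization and 0.074 with voom. At D0 edgeR gave 0.23 for Ppbp and 0.017 for Treml1. The interaction of Ppbp was -0.10 with pseudocount 5 and -0.78 with edgeR. With each library left out in turn, values at D7 ranged from -0.067 to 0.12 for Pf4, -0.42 to 0.41 for Ppbp, -0.21 to 0.19 for Itga2b, -0.10 to 0.12 for Gp9, -0.095 to 0.30 for Gp1bb and -0.018 to 0.22 for Treml1. At D0 they ranged from -0.44 to 0.059 for Pf4, -0.72 to 0.30 for Ppbp, -0.40 to 0.036 for Itga2b, -0.42 to 0.045 for Gp9, -0.18 to 0.25 for Gp1ba and -0.56 to 0.11 for Treml1. For the interaction they ranged from -0.00632 to 0.49 for Pf4, -0.40 to 0.62 for Ppbp, -0.078 to 0.36 for Itga2b and -0.064 to 0.40 for Gp9.

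Libraries of different groups share replicate numbers. Deviations of same-numbered libraries from their group means correlated between -0.51 and 0.41 across genes. The range was 0.046 to 0.41 for WT D0 with WT D7 and -0.20 to 0.11 for Trem2-/- D0 with Trem2-/- D7. Libraries with different numbers were not compared in this way, so whether the numbers pair libraries is not known. With the replicate number as a block, 5 members were called in WT and 5 in Trem2-/-, and 0 between genotypes: Ppbp was called in both genotypes (unadjusted limma p 0.034 and 0.040) and Gp1ba in WT (0.030), while Pf4 in WT was not (0.061). At the lowest depth, levels under 0.250 CPM cannot be told from 0.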
